A study of Homo sapiens with 4 samples.

Results

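The expression of 10 immediate early and feedback genes of the MAPK pathway was examined in LNCaP and PC3 prostate cancer cells exposed to atorvastatin (ATO). The genes were EGR1, FOS, FOSL1, JUN, DUSP1, DUSP4, DUSP5, DUSP6, SPRY2 and SPRY4, and every gene probe of the array that carried a member's name was used. These were 11 probes on 20 spots, of 34127 probes for 27274 gene names on 43118 spots. All 10 were on the array, of which 8 gave a value in PC3 cells and 5 in LNCaP cells.

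There were 4 groups with 1 array each, a control and an ATO group for each of the LNCaP and PC3 lines. LNCaP is an androgen-responsive line grown from a lymph node metastasis, and PC3 is an androgen-independent line grown from a bone metastasis. ATO, a statin that inhibits HMG-CoA reductase, was given at 10 µM for 24 h. The labels call the controls untreated. The methods state that ATO was dissolved in DMSO, and whether the array controls received this vehicle is not given in the sources used here. The lines are established cultures, so each is a model of a single tumour. With 1 array per group, there is no replicate check of any difference between arrays, and effects of ATO and of the culture, the RNA or the array cannot be told apart.

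The MAPK pathway carries signals from growth factor receptors through RAS, RAF and MEK to the kinase ERK. Active ERK switches on immediate early genes, which encode transcription factors such as EGR1 and the AP-1 subunits FOS, FOSL1 and JUN. Dual specificity phosphatases (DUSP) and Sprouty proteins (SPRY) are made in response to the same signal and restrain it, so their transcripts are often read as an output of ERK activity. JUN is also activated by the JNK branch of the pathway.

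The RefSeq promoter table (GRCh38.p14) held 7 of the 10 members, with 9 start sites. FOSL1, DUSP4 and DUSP5 were not matched. The 250 bases before the start are printed for JUN and SPRY2, the members at least 1.5-fold higher in PC3 ATO, for DUSP1, which differed in opposite directions in the lines, and for EGR1, an ERK target not well above background on any array. They lie at chr1:58784048-58784297 on the minus strand for JUN, chr5:172771196-172771445 on the minus strand for DUSP1, chr13:80341127-80341376 on the minus strand for the most upstream start of SPRY2, and chr5:138465229-138465478 on the plus strand for EGR1. Capitals mark matches to the motifs searched.
JUN: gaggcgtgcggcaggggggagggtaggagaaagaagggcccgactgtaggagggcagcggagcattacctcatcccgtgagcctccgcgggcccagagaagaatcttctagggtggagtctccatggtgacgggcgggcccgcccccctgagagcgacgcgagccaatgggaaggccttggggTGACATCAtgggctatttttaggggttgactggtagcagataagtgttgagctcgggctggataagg
DUSP1: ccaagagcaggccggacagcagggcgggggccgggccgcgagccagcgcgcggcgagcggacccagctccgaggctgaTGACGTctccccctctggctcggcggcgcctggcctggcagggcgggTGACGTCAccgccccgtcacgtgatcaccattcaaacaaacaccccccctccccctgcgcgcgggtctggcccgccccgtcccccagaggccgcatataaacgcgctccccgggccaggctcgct
SPRY2: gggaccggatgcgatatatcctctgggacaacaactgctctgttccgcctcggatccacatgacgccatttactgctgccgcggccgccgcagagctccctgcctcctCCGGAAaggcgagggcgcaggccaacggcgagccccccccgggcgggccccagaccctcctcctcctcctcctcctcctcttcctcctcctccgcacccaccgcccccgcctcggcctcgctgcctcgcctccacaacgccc
EGR1: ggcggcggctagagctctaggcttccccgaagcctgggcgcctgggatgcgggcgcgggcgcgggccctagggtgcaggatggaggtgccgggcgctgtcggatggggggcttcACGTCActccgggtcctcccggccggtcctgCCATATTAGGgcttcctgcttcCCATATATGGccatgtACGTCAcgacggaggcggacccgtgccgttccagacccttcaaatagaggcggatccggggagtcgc

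Motifs were searched on both strands of the same 250 bases of 35116 promoters. The CArG box, the binding sequence of the serum response factor, was found at a pair of positions in EGR1, from -105 to -96 and from -83 to -74, and in 1.16% of all promoters. The variant AP-1 element TGACATCA was found in JUN from -67 to -60 and in 2.37% of all promoters. The full cyclic AMP response element TGACGTCA was found in DUSP1 from -125 to -118 and in 1.65% of promoters. Its core TGACGT, which is contained in the full element, was found in DUSP1, EGR1 and FOS and in 7.10% of promoters. The ETS core CCGGAA was found at the most upstream start of SPRY2 and in 14.5% of promoters. The consensus AP-1 site TGANTCA, held by 6.57% of promoters, was not found in these windows, and none of the motifs was found at DUSP6, SPRY4 or the other 2 SPRY2 starts. A match describes the letters only, since binding was not measured.

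**Figure D1:**
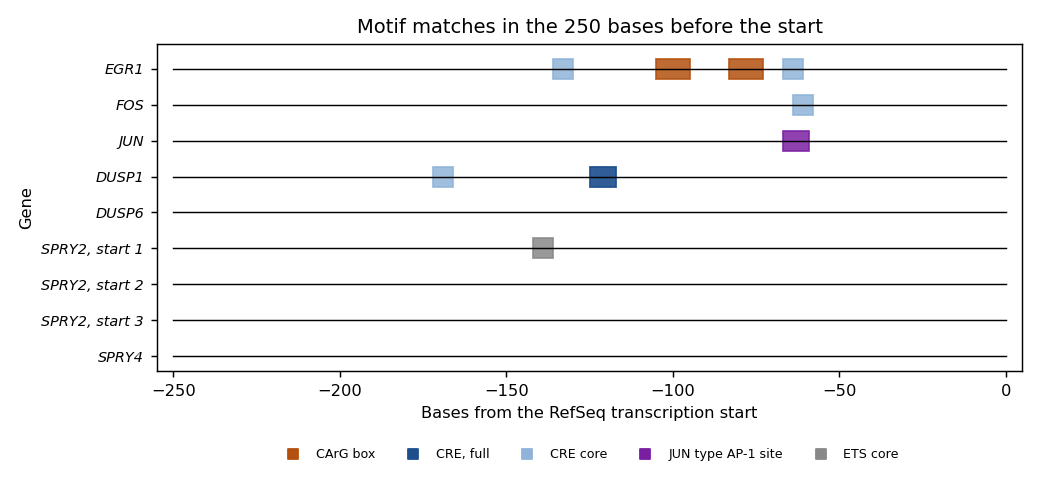
Motif matches in the 250 bases before 9 RefSeq starts of 7 members. The horizontal axis gives bases from the start and each row is a start site, with coloured blocks for matches on either strand. EGR1 holds both CArG boxes, JUN the variant AP-1 element at -67 and DUSP1 the full cyclic AMP element at -125.

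Intensities are given in the scanner's processed units, and ratios were taken after each array was divided by its 75th percentile, which lay between 496.8 and 590.3 units. Between 48.5% and 52.9% of gene spots were well above background, and no spot was saturated. The lowest intensity among probes well above background was 27.4 units for LNCaP control and between 52.1 and 54.7 units for the other arrays. Local background was uneven: it exceeded 1.5 times the array's median at 11.7% of LNCaP ATO spots, 9.44% of PC3 ATO spots, 4.76% of PC3 control spots and 0% of LNCaP control spots. Among probes printed 10 times, single spots of an LNCaP pair had a median SD of 0.11 in their log2 ratio, and of a PC3 pair 0.12. This is error within an array pair, not between cultures. The labels were checked with cell line markers: the LNCaP markers KLK3, KLK2 and TMPRSS2 were each at least 2-fold lower in PC3 control, and all 3 PC3 markers (CAV1, CD44 and VIM) were at least 2-fold higher.

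In PC3 cells, 3 of the 8 members with a value differed at least 1.5-fold between ATO and control. JUN was 2.77-fold and SPRY2 1.78-fold higher, and FOSL1 was 1.52-fold lower. In LNCaP cells, 0 of 5 members differed by that much, of which 3 (JUN, DUSP1 and DUSP4) were measured on both arrays and 2 (SPRY2 and SPRY4) had only a bound, set to no difference. The share of all genes past 1.5-fold was 18.4% in PC3 (8.21% higher and 10.2% lower) and 4.76% in LNCaP. The median log2 ratio of the members was 0.21 in PC3 against -0.01 for all genes. In LNCaP it was 0.41 over the 3 members measured on both arrays, and with the 2 bounds it was 0.0, which is the value of the bounds themselves. These are counts over 8 and 5 genes, and they rest on 1 array pair each.

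**Figure D2:**
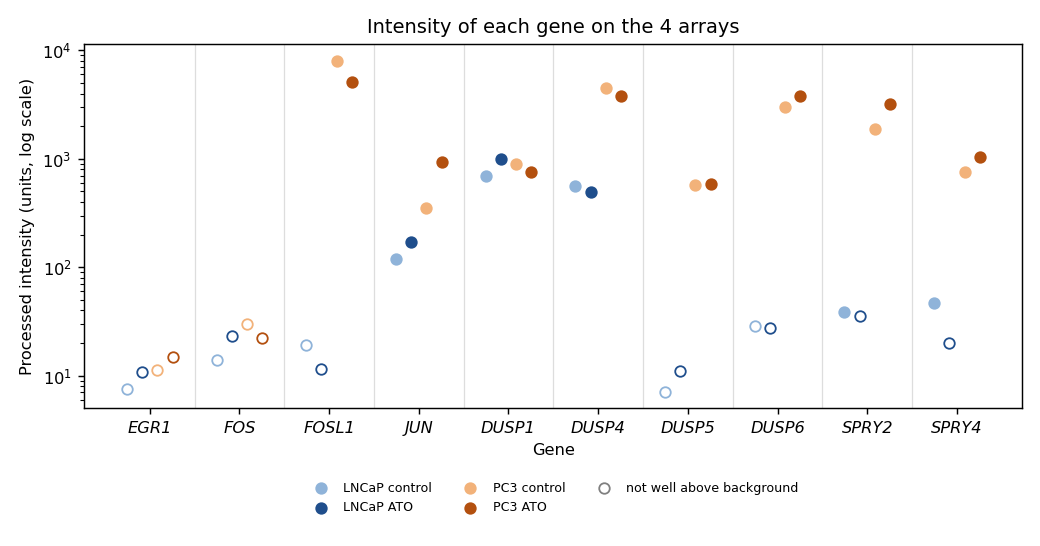
Processed intensity of the 10 genes on the 4 arrays, on a log axis, with the brightest probe of each gene and open circles where it was not well above background. FOSL1, DUSP5, DUSP6, SPRY2 and SPRY4 lie more than 10-fold higher in PC3 than in LNCaP, while DUSP1 lies between 696 and 992 units on all arrays.

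Among the transcription factors, JUN, the core AP-1 subunit, was measured on all 4 arrays. In LNCaP it read 119.7 units in control and 172.6 with ATO, and in PC3 349.7 in control and 938 with ATO. Both ATO arrays were above their controls, and PC3 control was above both LNCaP arrays. The log2 ratio was 1.47 in PC3 with an error of 0.21, as estimated by the scanning software, and 0.42 with an error of 0.24 in LNCaP. In PC3, 99.5% of genes had a lower ratio than JUN, and in LNCaP 96.4% did. Under the alternatives the LNCaP ratio of JUN ran from 0.20, with normexp background correction, to 0.58, with scaling to the spike-in probes. The probe lies at chr1:59019099-59019158 (hg18, minus strand). Local background around it was 128 units on PC3 ATO, where the array's median was 90.0, and 94.5 units on PC3 control, and its part in the ratio was not tested.

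FOSL1, a FOS family member that pairs with JUN, was measured in PC3 only. It read 8057 units in PC3 control and 5129.6 with ATO, while the LNCaP arrays, at 19.0 in control and 11.6 in ATO, were not well above background. The log2 ratio in PC3 was -0.60 with an error of 0.20, just past the 1.5-fold limit, and 6.93% of genes had a lower ratio. With scaling to the 50th percentile it was -0.41 and with normexp background correction -0.53, both inside the limit. The probe lies at chr11:65416674-65416733 (hg18, minus strand).

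FOS, the prototype immediate early gene, read 14.1 units in control and 23.0 with ATO in LNCaP, and 29.8 and 22.4 in PC3. EGR1, a zinc finger transcription factor, read 7.48 and 10.8 units in LNCaP and 11.2 and 14.95 in PC3. Neither was well above background on any of the 4 arrays, so no ratio was taken. Their probes do not show whether ATO altered these genes.

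Among the phosphatases, DUSP1, a nuclear enzyme that acts on p38 and JNK as well as ERK, was printed on 10 spots, which gave a direct view of the error within an array. Its mean in LNCaP was 696 units in control and 992 with ATO, over 9 spots each, and in PC3 889 in control and 752 with ATO, over 10 spots each. Ratios were taken after scaling, from the mean of the log2 values of the spots. In LNCaP all 8 spot pairs were higher with ATO, by log2 ratios from 0.18 to 0.73, and the log2 ratio of the probe was 0.41 with an SD of 0.18 between pairs. In PC3, 3 of 10 pairs were higher after scaling, the pairs ran from -1.02 to 0.03, and the log2 ratio of the probe was -0.21 with an SD of 0.34. Neither ratio reached 1.5-fold. The PC3 pair at -1.02 came from the spot in row 514, which read 427 units with ATO, and the median pair was -0.10. Bright local background lay under 2 of the spots on LNCaP ATO and 1 on PC3 ATO, and its part was not tested. The probe lies at chr5:172127902-172127961 (hg18, minus strand).

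**Figure D3:**
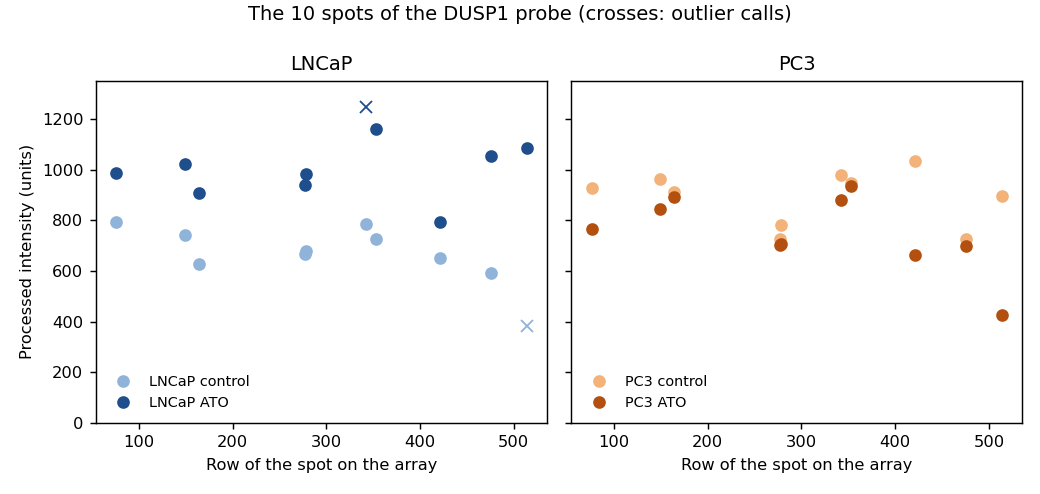
Processed intensity of the 10 spots of the DUSP1 probe against their row on the array, in LNCaP (left) and PC3 (right), with crosses for spots the software called outliers. Intensities are not scaled between arrays. The LNCaP ATO spots lie above the control spots of their rows throughout. Each PC3 ATO spot lies below the control spot of its row, most pairs lie close together, and the ATO spot in row 514 reads 427 units.

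DUSP4, another nuclear phosphatase, read 567 units in control and 497 with ATO in LNCaP, and 4475 and 3786 in PC3. The LNCaP log2 ratio was -0.29 with a software error of 0.21, and the PC3 ratio was -0.19 with an error of 0.20. Both ATO arrays were below their controls, by less than 1.5-fold. With scaling to the 50th percentile the PC3 ratio was 0.00, and the PC3 ATO spot lay on bright local background of 244 units.

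DUSP5, a nuclear phosphatase specific for ERK, read 578 units in PC3 control and 580.1 with ATO, a log2 ratio of 0.05 with an error of 0.21 that was below 0, at -0.03, with scaling to the spike-in probes. DUSP6, its cytoplasmic counterpart, read 3029 and 3782 units, a log2 ratio of 0.37 with an error of 0.20. Both genes differed by less than 1.5-fold in PC3. In LNCaP, DUSP5 at 7.12 units in control and 10.98 in ATO, and DUSP6 at 28.9 and 27.5, were not well above background.

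Both Sprouty genes, inhibitors of receptor signalling to RAS and RAF, had positive ratios in PC3. SPRY2 read 1875 units in PC3 control and 3219.6 with ATO, a log2 ratio of 0.83 with an error of 0.20, and 97.0% of genes had a lower ratio. SPRY4 read 756 and 1034 units, a log2 ratio of 0.50 with an error of 0.21, which did not reach 1.5-fold. Its PC3 control spot lay on bright local background. In LNCaP, SPRY2 read 38.4 units in control and 35.6 in ATO, and SPRY4 read 46.4 and 19.9, and each was well above background on the control array only. All 4 readings were below the lowest measurable level of the LNCaP ATO array (54.7 units), so no fold is given. A second SPRY4 probe, between 10.8 and 13.2 units, was not well above background on any array. The SPRY2 probe lies at chr13:79808623-79808682 (hg18, minus strand).

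**Figure D4:**
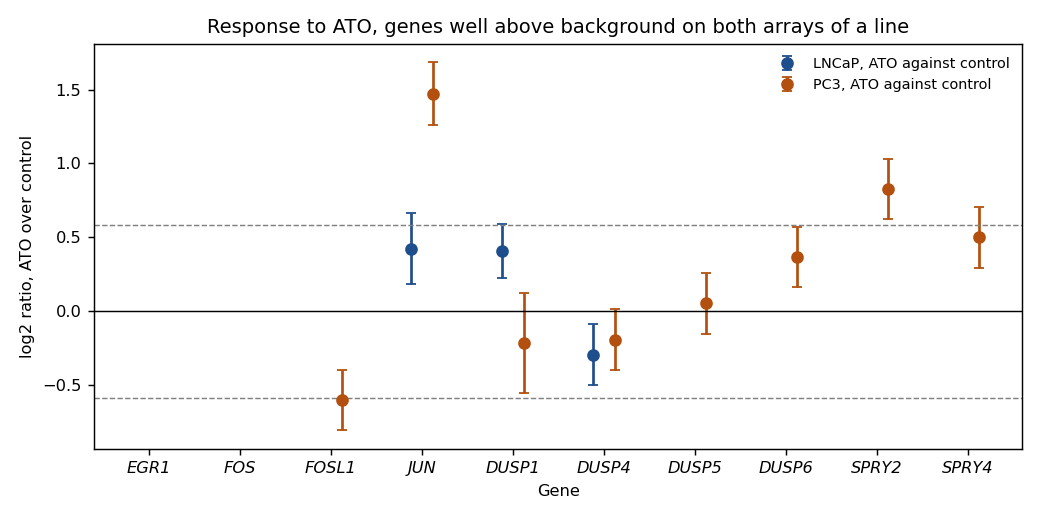
Log2 ratio of ATO over control for members well above background on both arrays of a line, with LNCaP in blue and PC3 in orange. Error bars are the scanning software's error, or the SD between spot pairs for DUSP1, and dashed lines mark 1.5-fold. JUN (1.47) and SPRY2 (0.83) in PC3 lie above the upper line and FOSL1 (-0.60) lies just past the lower line.

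The treatment was also tested in both lines together with limma, with the cell line as a term and 1 residual degree of freedom. Of 11902 genes, 0 passed an adjusted p of 0.05, the smallest adjusted p was 0.762, and 531 genes (4.46%) had an unadjusted p below 0.05. JUN was higher in 2 of 2 lines, with a mean log2 ratio of 0.95 (SE 0.31) and an adjusted p of 0.762 by limma. The limma adjusted p was 0.762 for DUSP4 and 0.900 for DUSP1. The fits of SPRY2 and SPRY4 are not given, since their LNCaP ATO readings were not well above background. Differences between the lines in the response could not be tested with 1 array per group.

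Between the control arrays, 7 of 8 members with a value were at least 2-fold higher in PC3 and 0 were lower, where 39.7% of all genes differed that much, 20.5% higher and 19.2% lower in PC3. Of the 8, FOSL1, DUSP5 and DUSP6 had a value only through PC3 and so could not come out lower. Among members measured on both arrays, 4 of 5 were higher and 0 lower. Of 11775 such genes 31.9% differed, 1564 higher and 2196 lower in PC3. FOSL1 was at least 248-fold, DUSP6 at least 88.3-fold and DUSP5 at least 17.8-fold higher, since their LNCaP probes were not well above background. These bounds hold for the scanning software's background subtraction only. SPRY2 was 41.1-fold, SPRY4 13.7-fold, DUSP4 6.65-fold and JUN 2.46-fold higher. With normexp background correction the log2 ratios of 6 of these genes, bounds included, were smaller: 6.27 against 7.95 for FOSL1, 4.65 against 6.46 for DUSP6, 2.80 against 4.15 for DUSP5, 3.95 against 5.36 for SPRY2, 2.40 against 3.78 for SPRY4 and 2.45 against 2.73 for DUSP4. DUSP1 differed 1.07-fold, with a log2 ratio of 0.10 that was -0.34 with scaling to the 50th percentile. JUN was below 2-fold with scaling to the 50th percentile and with normexp background correction (log2 ratios of 0.86 and 0.76 against 1.30).

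For each member measured on all 4 arrays, the gene with the most similar profile was sought among 11015 genes, by the distance between mean-centred log2 values. The nearest to JUN was HPGD (0.09), the nearest to DUSP1 was ENPP1 (0.02) and the nearest to DUSP4 was ARAP2 (0.05). With 4 arrays such likeness describes the profile only.

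Other genes of the pathway were taken from 8 lists. The upstream ERK cascade, from receptors and RAS to the kinases, had 1 of 23 genes with a value past 1.5-fold in each line, where the share over all genes was 4.76% in LNCaP and 18.4% in PC3. It was SOS2, a guanine nucleotide exchange factor for RAS, in PC3 (log2 ratio of 0.90, with bright background under at least 1 ATO spot). In LNCaP it was its paralog SOS1 (0.76), and a second SOS1 probe, well above background in control only, gave a bound of -0.03. Second probes also passed 1.5-fold in PC3 for ERBB2 (at least 1.60, against 0.37 for the brightest probe) and NRAS (0.65 against -0.06). Of 11 p38 and JNK pathway kinases with a value in PC3, MAP2K6, a p38 activator, was lower (-1.31), and 0 of 12 differed by that much in LNCaP.

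Among 19 other immediate early genes with a value in PC3, 5 were higher and 3 lower. For this and the lists that follow, the share of all genes past 1.5-fold was 8.21% higher and 10.2% lower in PC3, and 4.76% in either direction in LNCaP. KLF6, a zinc finger factor, had a log2 ratio of 1.64, and JUND, a JUN paralog, of 1.63. ZFP36, which destabilises inflammatory mRNAs, had 1.06. CYR61, a matrix protein gene that is a serum response and YAP target, was lower by 2.52 on the log2 scale, from 12699 to 2138 units. ATF3 (0.79), TRIB1 (0.63), MYC (-0.93) and SRF (-0.74) also passed 1.5-fold. These 4 fall outside the naming rule and were picked with their values in view. The other ATF3 probes gave 1.48, 0.65 and 0.22, the last inside the limit. A second KLF6 probe, well above background in PC3 in ATO only, gave at least 0.64. In LNCaP, 0 of 15 passed, with KLF6 at 0.58 just inside the limit. There the second KLF6 probe, well above background in control only, gave a bound of -0.45, the opposite direction.

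Among 7 other MAPK phosphatases, DUSP16, which acts on JNK, was higher in PC3 (0.70) while DUSP14 (-0.69) and DUSP2, a nuclear ERK phosphatase (at least 1.87-fold), were lower. In LNCaP, 1 of 6 passed, DUSP10, a phosphatase of p38 and JNK (0.59). DUSP8 was inside the limit in both lines by its brightest probe, but its other probes disagreed in direction. They gave -0.20 and 0.89 in LNCaP, and 0.73 and a bound of -0.89 in PC3. Of 5 further Sprouty, Spred and receptor feedback genes, ERRFI1, an inhibitor of EGFR family receptors, was higher in PC3 (1.04), while 0 of 5 passed in LNCaP. Among 8 partner factors of the ternary complex and of AP-1 with a value in PC3, ATF2 (0.60) was higher and ETS2 (-0.59) lower, each just past the limit, with 0.52 for a second ATF2 probe, and 0 of 6 passed in LNCaP. A second MAFG probe also passed in PC3 (0.60, against 0.43 for the brightest probe). For ELK1 the other probes gave a bound of -0.67, past the limit, and -0.04, against -0.20 for the brightest.

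AP-1 target genes gave the largest ratios of the 8 lists in PC3. Of 9 with a value in PC3, 3 were higher and 1 lower. MMP1, a collagenase, read 934 units in PC3 control and 8214 with ATO, 9.10-fold higher. MMP10, a stromelysin, was at least 9.68-fold higher, HMOX1, a haem-degrading stress enzyme, was 2.11-fold higher, and PLAU, the urokinase, was 2.01-fold lower. The PC3 ATO spot of MMP10 and at least 1 PC3 ATO spot of PLAU lay on bright local background, as did at least 1 PC3 control spot of HMOX1. A second PLAU probe gave -1.11. Of 2 with a value in LNCaP, 0 passed. Delayed ERK targets gave 1 higher and 1 lower of 9 in PC3, the ETS factor ETV1 (0.66) and the receptor EPHA2 (-0.65), and 0 of 4 in LNCaP. The other ETV1 probes gave 0.78, 0.62 and -0.28, so they disagree in direction. A second AREG probe passed 1.5-fold in PC3 (0.96, against 0.16 for the brightest probe). Between the control arrays, 8 of 9 delayed ERK targets and 7 of 8 AP-1 targets were at least 2-fold higher in PC3, where 20.5% of all genes were. Most of these genes had a value only through PC3, since their LNCaP probes were not well above background. Of the AP-1 targets measured on both arrays, PLAUR was higher (6.37) and HMOX1 was not (-0.65). Higher and lower counts in the other lists, bounds included, were 12 and 2 of 19 immediate early genes and 4 and 0 of 5 feedback genes. For 23 cascade genes they were 4 and 2, and for 12 p38 and JNK kinases 2 and 1. For 7 phosphatases they were 1 and 2, and for 9 partner factors 3 and 3.

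**Figure D5:**
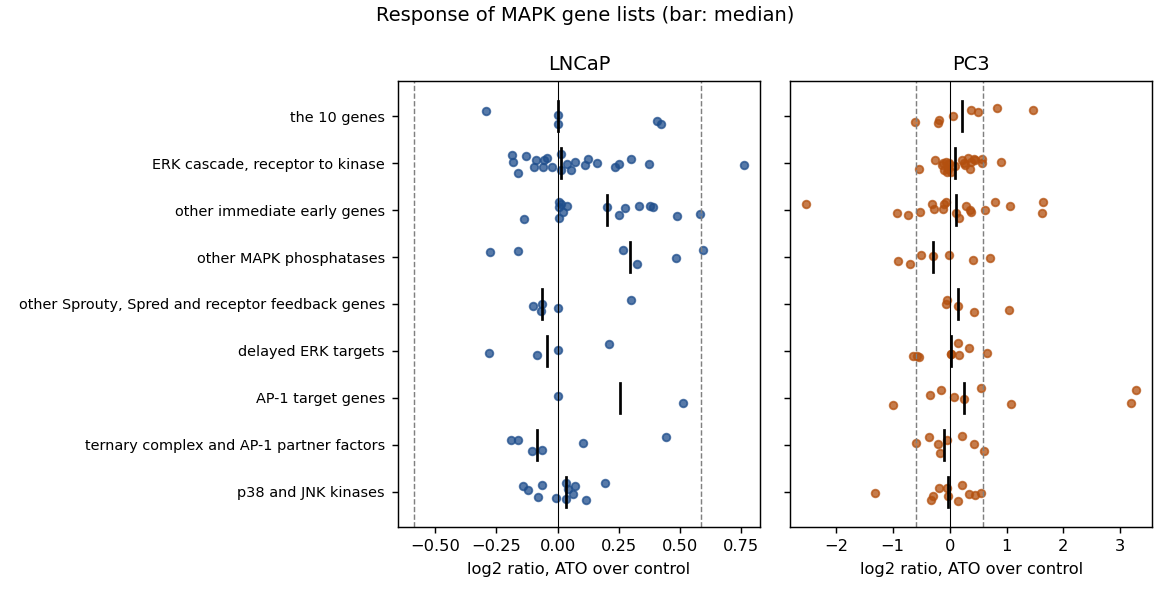
Log2 ratio of ATO over control for the members and for 8 pathway lists, in LNCaP (left) and PC3 (right), with different horizontal scales. Each point is a gene with a value, bounds included, vertical bars are medians and dashed lines mark 1.5-fold. The PC3 points beyond the lines include MMP1 and MMP10 on the right and CYR61 on the left.

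Some cell line markers also differed with ATO. VIM, a PC3 marker, was 1.97-fold higher in LNCaP ATO, at 65.3 units in control and 138 in ATO, while CAV1 and CD44 were not well above background in LNCaP. In PC3, the LNCaP marker TMPRSS2 was higher (log2 ratio of 1.02), and 1 of 3 PC3 markers was lower, CAV1 (-1.25, and -0.78 with a second probe). Their part in the results above was not tested.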

How the data were processed

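RNA of LNCaP and PC3 cells was measured on 1-colour Agilent arrays, all on 1 slide. Per the file headers, the deposited intensity values came from Agilent Feature Extraction 9.5.3.1, with background subtracted, and the probe positions are hg18. No annotation of that build was used here, so exon positions are not given. The authors also deposited a table of ratio values, which matched the intensity over each array's 75th percentile within 2% for at least 99.1% of values above 1. It was used as an alternative. The table's rows were taken by probe.

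Outlier spots were left out, the log2 intensity of the spots of a probe was averaged, and the log2 of that array's 75th percentile of intensity was taken off. A probe was well above background where over 50% of its spots were. The brightest probe stood for a gene. Where only 1 array of a pair was well above background, the ratio is a bound against the lowest measured level of the dim array, or against the dim reading where that was higher. Genes were counted at 1.5-fold within a line and 2-fold between controls. limma 3.58.1 in R 4.3.3 tested ATO with cell line as a term over genes well above background on both control or both ATO arrays. The scripts were tested on simulated data.

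The named genes of each list were up to 4 past 1.5-fold with the largest difference in PC3 and up to 2 in LNCaP, and any past it in both. The members and lists were chosen with earlier results of these data known. The software's error estimates and the 4 arrays limit the precision. Alternatives covered the scaling, background correction, filters, fold threshold, probe choice and spots on bright background. Some cell line markers are not reported here.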

Additional observations from a re-analysis of the deposited data

Results flagged for a closer look

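DUSP1 differed in opposite directions in the lines: its log2 ratio of ATO over control was 0.41 in LNCaP and -0.21 in PC3, so that the PC3 ratio minus the LNCaP ratio was -0.62. It was listed because the 1 treated array of each line moved in opposite directions from its control. Each ratio also had to pass the median SD of a single-spot ratio (0.11 in LNCaP and 0.12 in PC3). The difference was not tested, since each group had 1 array, and neither ratio reached 1.5-fold. The direction was the same under all 7 alternatives run for each line, with the PC3 ratio between -0.30 and -0.02 and the LNCaP ratio between 0.30 and 0.57. With 1 probe for DUSP1, the median over probes could not move the value. The SD between the spot pairs of DUSP1 itself was 0.18 in LNCaP and 0.34 in PC3. In PC3 the pair in row 514 gave -1.02 and the median pair was -0.10, which is smaller than the SD used for listing. Bright local background lay under 2 of its spots on LNCaP ATO and 1 on PC3 ATO, and its part was not tested.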

How the results depend on the processing

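The limma fit with cell line as a term set each ATO array against the control of its own line. The labels give no replicate numbers and each group had 1 array, so there was no replicate block to fit and no replicate to leave out. No alternative reversed the direction of a called value. JUN and SPRY2 in PC3 stayed past 1.5-fold under all 7 alternatives run for single genes (1.36 to 1.67 and 0.74 to 1.02 on the log2 scale), FOSL1 under 5 of 7 (-0.69 to -0.41) and SPRY4 under 1 of 7 (0.40 to 0.70). For these genes a single spot gave the ratio, so the median over probes and keeping outlier spots returned the main value by construction. The deposited table shares the main scaling and could hardly differ. The 7 alternatives are therefore not 7 separate checks. The count of members was 3 of 8 in PC3, 2 with normexp and 1 at 2-fold, where 18.4%, 12.4% and 6.09% of all genes passed. With scaling to the 50th percentile the count stayed at 3, with SPRY4 past the limit in place of FOSL1, and 22.2% of all genes passed. The LNCaP count was 0 of 5, and 3 of 10 without a filter on dim probes, where 42.9% of all genes passed. Between controls the count was 7 of 8, and 4 of 5 where both arrays had to be well above background. The shares of all genes there were 39.7% and 31.9%. The members' median in PC3 was 0.21, and 0.37 without spots on bright background and 0.41 with scaling to the 50th percentile. That scaling moved the all-gene median by 0.20. In LNCaP it was 0.0, and 0.12 without a filter and 0.41 with both arrays well above background. Over all genes, 654 differed in LNCaP, 387 without bright background, 354 with normexp, 338 with both arrays well above background, 329 at 2-fold and 11687 without a filter. In PC3 2548 differed, 841 at 2-fold and 4953 without a filter. Between controls 6044 differed, 3760 with both arrays well above background and 2442 at 4-fold. With limma 0 genes passed, but 12 with scaling to the 50th percentile (4 higher) and 2 with scaling to the spike-in probes. The share of higher among differing genes was 57.8% in LNCaP, 44.5% in PC3 and 51.7% between controls. With the 50th percentile it was 70.5% in PC3 and 32.2% between controls, and with the spike-in probes 77.1% in LNCaP, 31.6% in PC3 and 75.4% between controls. With normexp it was 46.3% in LNCaP. The spike-in scaling shifted the median of all genes by 0.16 in LNCaP and 0.52 between controls, and the 50th percentile shifted it by -0.44 between controls. The cause of these moves was not tested, apart from the higher fold threshold and the stricter filters, which count fewer genes by construction. Members not well above background have no ratio at this signal.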
